A study of Mus musculus with 9 samples.

Results

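The 10 genes described here encode nuclear receptors found in myeloid cells: Rxra, Rxrb, Rara, Rarg, Ppard, Nr1h2, Vdr, Thra, Nr3c1 and Nr4a1. They were chosen by name, by matching the Entrez identifiers of the count files to these mouse symbols, and they are 10 of 27179 gene entries. All 10 were among the 12004 genes left by a filter on low counts and tested.

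RNA was sequenced from AML246, a cultured mouse acute myeloid leukaemia line of strain C57BL/6 and genotype p53-/- with a hairpin (shPU.1) that lowers PU.1, a transcription factor of myeloid cells whose gene is Spi1. Cells grew with the cytokine IL3, and clones 1, 2 and 4, each grown from a single sorted cell, were measured in 3 conditions, which gave 9 libraries. The washed group (3 libraries) was kept in doxycycline for 14 days, then out of it for 14 days, and was sorted as GFPhigh, the state with the hairpin made. The doxycycline group (3 libraries) was sorted after 14 days in the drug as GFPoff, the state with the hairpin off, and the untreated group (3 libraries) had no doxycycline and was sorted as GFPhigh. The p53 loss and the hairpin construct are shared by all groups, the clones come from 1 line, and doxycycline, the GFP gate and the hairpin state cannot be told apart.

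Nuclear receptors are transcription factors that bind small lipid-soluble ligands and DNA directly. RXR proteins, encoded by Rxra and Rxrb, pair with the retinoic acid receptors (Rara, Rarg) and with PPAR delta (Ppard). They also pair with the oxysterol receptor LXR beta (Nr1h2), the vitamin D receptor (Vdr) and the thyroid hormone receptor alpha (Thra). The glucocorticoid receptor (Nr3c1) pairs with itself. Nr4a1 is an orphan receptor known as an immediate early gene. In myeloid cells retinoic acid is known for driving granulocyte maturation, and a fusion of the human RARA gene causes acute promyelocytic leukaemia.

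Library totals ran from 7408118 to 9803258 counts. Spi1 was at 24 to 52 CPM (library-size-scaled counts, adjusted by the TMM method) in washed libraries, at 156 to 197 CPM in doxycycline libraries and at 24 to 48 CPM in untreated libraries. Its log2 fold change for doxycycline against untreated was 2.20 ± 0.34 SE by edgeR's quasi-likelihood test (adjusted p = 0.00623; 0.0816 without clone 2 and 0.103 without clone 4), and each clone was higher in doxycycline. One entry, with no symbol in the table used, held 22.0% of the counts of untreated clone 1 and 0.153% to 1.64% elsewhere, and the TMM factor of that library was 0.736 against 0.916 to 1.18 in the others. Markers fitted the myeloid label in part: all 15 of the myeloid and progenitor list were detected, with Csf2rb at 485 to 2794 CPM and Kit at 48.8 to 281 CPM, but Mpo ran from 0.872 to 1720 CPM and Ptprc from 0.489 to 45.1 CPM across libraries. Of the 14 markers of T, B and NK cells, Cd4, Pax5 and Ncr1 had no count in any library, whereas Nkg7 had 42.6 to 360 CPM, Cd3g 8.38 to 211 CPM and Lck 3.95 to 29.5 CPM. The sum of this list was 225 to 401 CPM in washed, 91.6 to 216 CPM in doxycycline and 221 to 282 CPM in untreated libraries. Because each library pools the cells of a clone, fewer cells of a kind and less RNA per cell cannot be told apart.

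Rxra was the member with the largest fitted difference in doxycycline. It had 33.9, 84.8 and 55.0 CPM in doxycycline clones 1, 2 and 4, against 9.72, 23.0 and 15.8 CPM in untreated clones. The lowest doxycycline library lay above the highest untreated one, and the clones kept the same order in both groups. Within clones the ratios were 3.48, 3.68 and 3.48, and the SD of their log2 values was 0.0458. Rxra was the only one of the 10 genes at 3 times its untreated level or more in each clone. That rule, chosen after the values were seen, was met by 1.88% of all tested genes.

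Whether that difference was called depended on the treatment of clones, the scaling, the filter and the tool. In the fit with a mean per group, the log2 fold change of Rxra was 1.83 ± 0.53 SE with a 95% interval of 0.64 to 3.02, and the adjusted p of 0.0561 missed the threshold of 0.05. With no block it was called with library size alone (adjusted p = 0.0308), no filter (adjusted p = 0.0413), DESeq2 (adjusted p = 0.00642) and the 2 groups alone (adjusted p = 0.0204), and missed with RLE (adjusted p = 0.0587), the filter of 5 CPM (adjusted p = 0.0609) and limma voom (adjusted p = 0.0698). In edgeR's quasi-likelihood fit with clone as a block, Rxra rose by 1.84 ± 0.18 SE on the log2 scale (adjusted p = 0.000813). That call stood when any 1 clone was left out of the block fit (adjusted p 5.99e-05 without clone 1, 0.0266 without clone 2 and 0.0331 without clone 4). The unblocked fit called Rxra without clone 1 (adjusted p = 0.0315), while the adjusted p was 0.118 without clone 2, 0.412 without clone 4 and 0.185 without untreated clone 1.

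After washout Rxra had 7.46, 29.3 and 17.0 CPM in washed clones 1, 2 and 4, all below the lowest doxycycline library. The washed and untreated groups overlapped, with washed clone 1 below and washed clone 2 above all untreated libraries. Against doxycycline, the log2 fold change was -1.69 ± 0.52 SE (adjusted p = 0.0753, edgeR), and with clone as a block Rxra fell by 1.78 on the log2 scale (adjusted p = 0.000866). Against untreated it was 0.13 ± 0.52 SE with a 95% interval of -1.03 to 1.30 (adjusted p = 1), and with clone as a block 0.053 ± 0.18 SE with an interval of -0.36 to 0.47 (adjusted p = 0.974).

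The sum of 11 neutrophil markers was also higher in doxycycline than in the other groups. It was 37.3 to 68.9 CPM in washed and 21.6 to 101 CPM in untreated libraries. In doxycycline it was 2400, 592 and 1122 CPM in clones 1, 2 and 4, so that among these clones its order was the reverse of that of Rxra. Of 9 tested genes of the list, 7 were called higher in doxycycline against untreated, where 6.57% of all genes were. After washout 7 were called lower, where 6.02% of all genes were. Over the 9 libraries S100a9 reached 993 CPM, Ngp 677, S100a8 422 and Lcn2 265 CPM, while Ly6g reached 6.88 CPM. The sum of 11 monocyte and macrophage markers in doxycycline was 1214, 5387 and 2618 CPM in clones 1, 2 and 4, the same order as Rxra. The part of either marker list in the Rxra values was not tested.

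**Figure D1:**
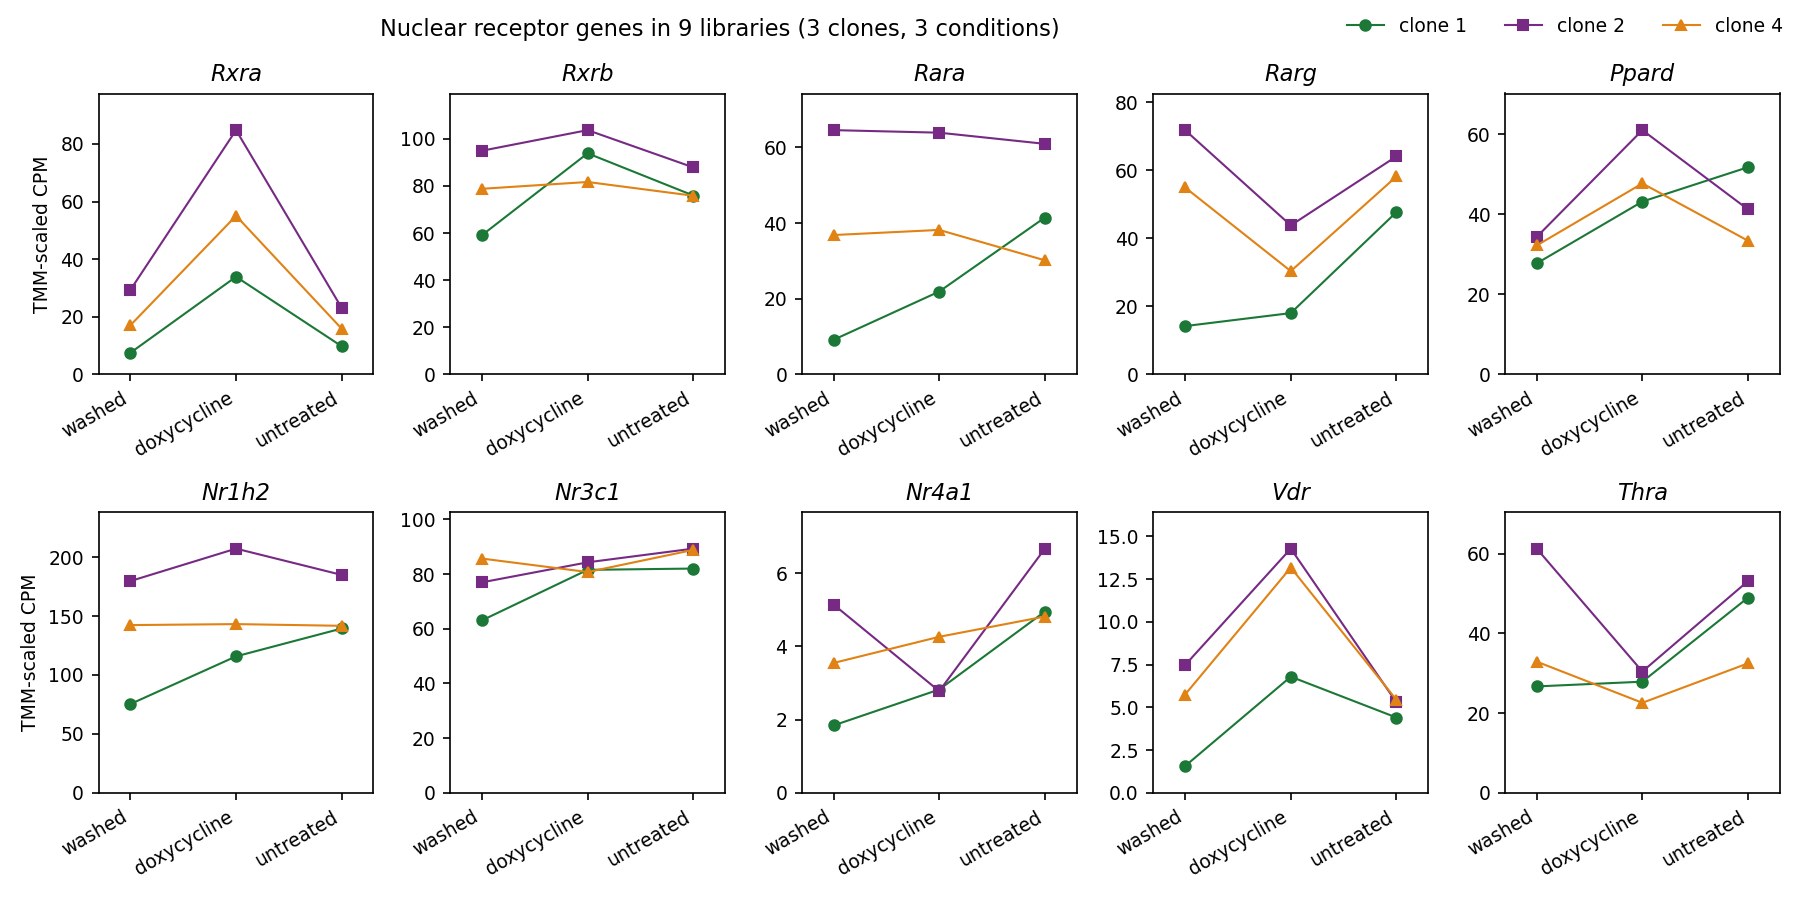
TMM-scaled CPM of the 10 genes in the washed, doxycycline and untreated library of each clone, with a line per clone and an axis of its own for each gene. Rxra peaks in doxycycline in all 3 clones and keeps the order clone 2, clone 4, clone 1, while Nr3c1 stays between 63.0 and 89.3 CPM.

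Over the 10 genes, doxycycline against untreated gave no call in the fit without the block (0 of 10), where 10.9% of all tested genes were called. Rxra and Thra had an unadjusted p under 0.05 there, as had 27.2% of all genes. Of the members, limma voom called 0, with 1138 of 12004 genes called, and DESeq2 called Rxra alone, with 2138 of 11988 genes called. The block fit called 1 of 10, Rxra, against 24.8% of all genes (13% in the higher direction). Groups did not overlap for 5 of 10 members, against 38.9% of all genes. Rxra and Vdr were higher in doxycycline, against 20.4% of all genes, and Rarg, Nr4a1 and Thra were lower, against 18.5%. The median log2 fold change of the members was -0.039, and that of all tested genes was 0.00448.

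For washed against doxycycline, 0 of 10 members were called without the block by edgeR and by limma voom, where edgeR called 9.66% of all genes. Limma voom called 1113 of 12004 genes. Rxra, Ppard and Vdr had an unadjusted p under 0.05 in edgeR, as had 26% of all genes, and DESeq2 called Rxra and Ppard, with 1967 of 11988 genes called. With clone as a block those 3 genes were called, all lower after washout, as were 22.9% of all genes (12.4% of all genes in the lower direction). Only Rxra was still called by the block fit without clone 2 and without clone 4, and Ppard was not called without washed clone 1. Groups did not overlap for Rxra and Ppard, both lower, against 26.4% of all genes (14.5% lower). This comparison shares its doxycycline libraries with the one before, so an opposite sign in both is no separate evidence.

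**Figure D2:**
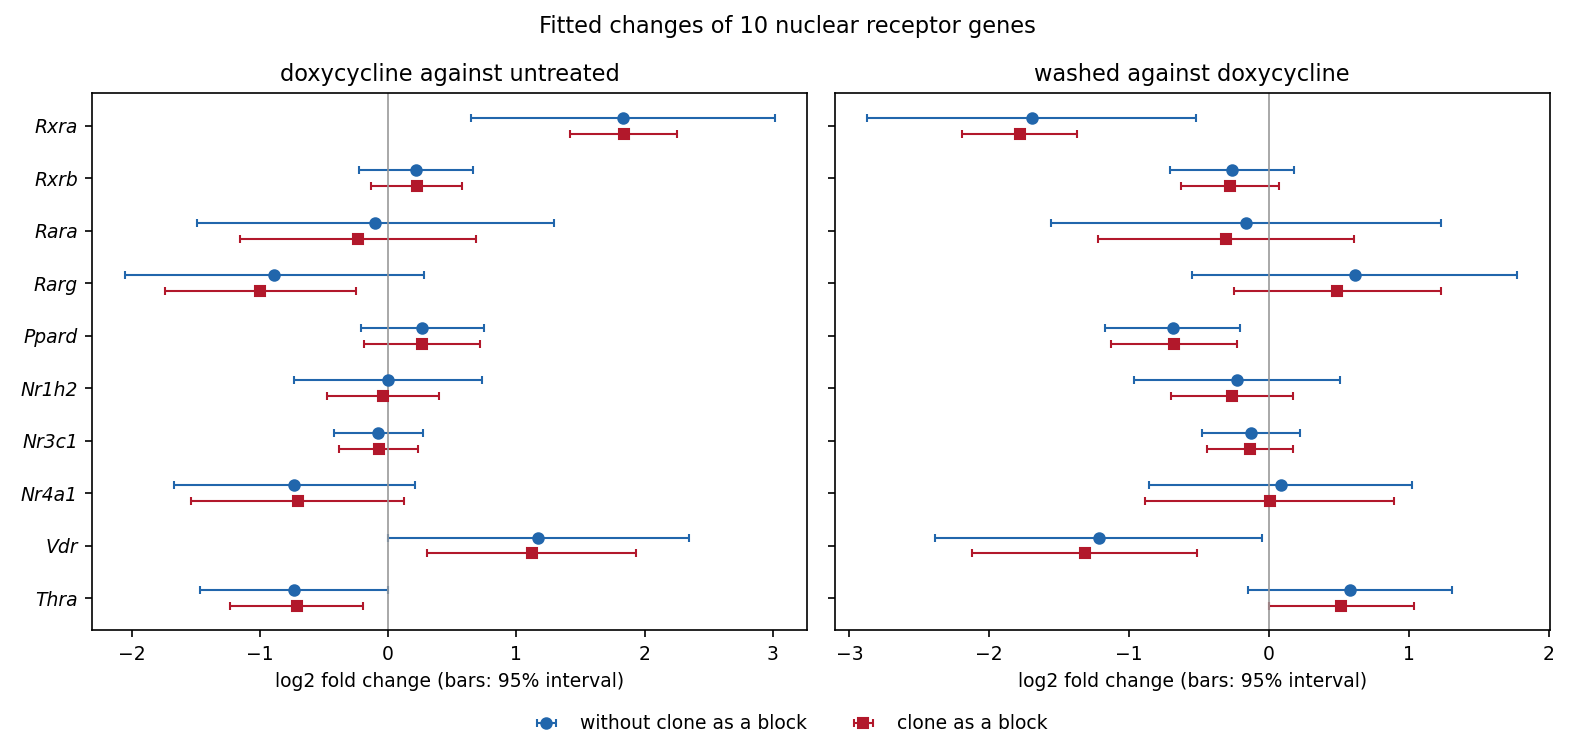
Fitted log2 fold changes of the 10 genes with 95% intervals, for doxycycline against untreated on the left and washed against doxycycline on the right, without clone as a block (blue circles) and with it (red squares). The block narrows the interval of Rxra around 1.84 and -1.78, and those of Rxrb, Rara, Nr1h2, Nr3c1 and Nr4a1 span 0 in both panels under both fits.

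Promoter sequences are shown for the 3 genes called lower after washout under the block, 2 annotated starts for Rxra and 1 each for Ppard and Vdr. They are 300 bases each, 250 before and 50 after the annotated start, from RefSeq on GRCm38.p6, written 5′ to 3′ on the strand of the gene: Rxra start 1 at chr2:27676951-27677250 (+), Rxra start 2 at chr2:27709042-27709341 (+), Ppard at chr17:28232504-28232803 (+) and Vdr at chr15:97908247-97908546 (-). Capitals mark GGAA or its reverse complement TTCC, the core of ETS factor sites such as those of PU.1, and AGGTCA or its reverse complement TGACCT, the half-site of nuclear receptors.
Rxra start 1: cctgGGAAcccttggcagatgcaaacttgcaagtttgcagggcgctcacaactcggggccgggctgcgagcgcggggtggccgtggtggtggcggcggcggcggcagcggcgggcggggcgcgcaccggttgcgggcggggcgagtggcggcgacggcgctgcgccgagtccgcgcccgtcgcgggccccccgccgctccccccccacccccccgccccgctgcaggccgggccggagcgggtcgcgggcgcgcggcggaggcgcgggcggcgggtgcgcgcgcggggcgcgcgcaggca
Rxra start 2: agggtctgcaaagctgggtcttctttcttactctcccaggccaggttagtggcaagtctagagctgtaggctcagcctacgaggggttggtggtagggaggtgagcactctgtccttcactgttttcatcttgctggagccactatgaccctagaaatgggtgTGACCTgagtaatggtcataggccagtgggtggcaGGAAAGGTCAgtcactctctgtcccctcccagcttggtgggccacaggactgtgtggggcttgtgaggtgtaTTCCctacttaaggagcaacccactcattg
Ppard: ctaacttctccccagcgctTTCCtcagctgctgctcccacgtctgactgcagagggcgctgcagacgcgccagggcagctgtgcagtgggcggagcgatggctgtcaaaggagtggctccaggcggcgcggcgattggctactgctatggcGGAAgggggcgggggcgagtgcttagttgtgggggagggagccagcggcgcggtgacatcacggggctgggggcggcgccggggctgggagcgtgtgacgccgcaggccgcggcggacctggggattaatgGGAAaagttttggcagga
Vdr: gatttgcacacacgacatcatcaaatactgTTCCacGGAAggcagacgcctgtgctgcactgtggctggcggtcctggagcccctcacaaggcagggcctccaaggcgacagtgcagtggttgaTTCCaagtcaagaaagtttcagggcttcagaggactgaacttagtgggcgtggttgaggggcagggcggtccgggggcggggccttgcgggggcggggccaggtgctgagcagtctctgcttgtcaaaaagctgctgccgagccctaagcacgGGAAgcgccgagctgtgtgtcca
Of the 10 genes, 8 matched the RefSeq promoter table, with 14 windows. Rxra start 1 held 1 GGAA core, Rxra start 2 held 2 GGAA cores and 2 AGGTCA half-sites, Ppard held 3 GGAA cores and Vdr held 4. No base lay in both motifs. GGAA or TTCC stood in 96.0% of all 32851 promoter windows of this length and AGGTCA or TGACCT in 16.3%. The longer GAGGAA, searched with TTCCTC, stood in 28.3%, and among the 4 windows printed it stood once, in Ppard, where it contains 1 of the 3 GGAA cores. Counts per gene cannot show which start of Rxra was used.

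Rxrb, the other RXR gene, had 93.9, 104 and 81.7 CPM in doxycycline clones 1, 2 and 4, against 75.9, 87.9 and 75.8 CPM in untreated clones. The groups overlapped, although each doxycycline clone was the higher one (log2 fold change 0.22 ± 0.20 SE, adjusted p = 0.516). In washed clones it had 59.1, 95.0 and 78.8 CPM, with clone 1 below all other libraries. Rxrg, the third RXR gene, had at most 1 count in any library and was not tested.

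The makeup of the RXR pair followed Rxra. Shares within a receptor family, here and below, are computed from the same levels, so they are no separate evidence. Scaled to gene length (CPM per kilobase), Rxra made up 15.9%, 30.1% and 26.2% of the RXR total in doxycycline clones 1, 2 and 4, against 6.29%, 12.1% and 9.87% in untreated clones. In washed clones it made up 6.22%, 13.9% and 10.2%. Every doxycycline share lay above every share of the other groups. The means were 24.0% ± 7.29 in doxycycline and 9.42% ± 2.93 in untreated clones (SD, n = 3 each; exact permutation p = 0.1, two-sided, the smallest that 3 against 3 allows). The washed mean was 10.1% ± 3.86, against the untreated mean with an exact permutation p = 0.8 (two-sided, n = 3 each). Rxrb was the more abundant RXR transcript per kilobase in all 9 libraries, so the share of Rxra stayed below that of Rxrb in doxycycline too.

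Rara encodes the retinoic acid receptor alpha. It had 21.9, 63.9 and 38.2 CPM in doxycycline clones 1, 2 and 4, against 41.5, 61.0 and 30.1 CPM in untreated clones. Clone 1 was lower in doxycycline and clones 2 and 4 were slightly higher, and the groups overlapped (log2 fold change -0.10 ± 0.62 SE, adjusted p = 0.937). In washed clones Rara had 9.11, 64.6 and 36.8 CPM, so that clone 1 was lowest after washout and clones 2 and 4 were close to their other libraries.

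Rarg encodes the retinoic acid receptor gamma. It had 18.0, 43.8 and 30.3 CPM in doxycycline clones 1, 2 and 4, against 47.7, 64.1 and 58.2 CPM in untreated clones. All 3 doxycycline libraries lay below the untreated ones. The log2 fold change was -0.89 ± 0.52 SE (adjusted p = 0.307), and -0.996 with clone as a block (adjusted p = 0.0565), which missed the threshold in both fits. In washed clones Rarg had 14.2, 71.8 and 54.9 CPM, with clone 1 below its doxycycline level and clones 2 and 4 above theirs. With the block and without clone 1, Rarg was called lower in doxycycline.

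Per kilobase, Rarg made up 51.3%, 46.9% and 50.6% of the retinoic acid receptor total in doxycycline clones 1, 2 and 4, against 59.5%, 57.3% and 71.3% in untreated clones. In washed clones it made up 65.1%, 58.9% and 65.7%. The doxycycline shares lay below all the others. The means were 49.6% ± 2.37 in doxycycline and 62.7% ± 7.53 in untreated clones (SD, n = 3 each; exact permutation p = 0.1, two-sided, the smallest possible). The washed mean was 63.2% ± 3.79, with an exact permutation p = 1 against the untreated mean (two-sided, n = 3 each). Rarb, the third gene of the group, had at most 5 counts in a library.

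**Figure D3:**
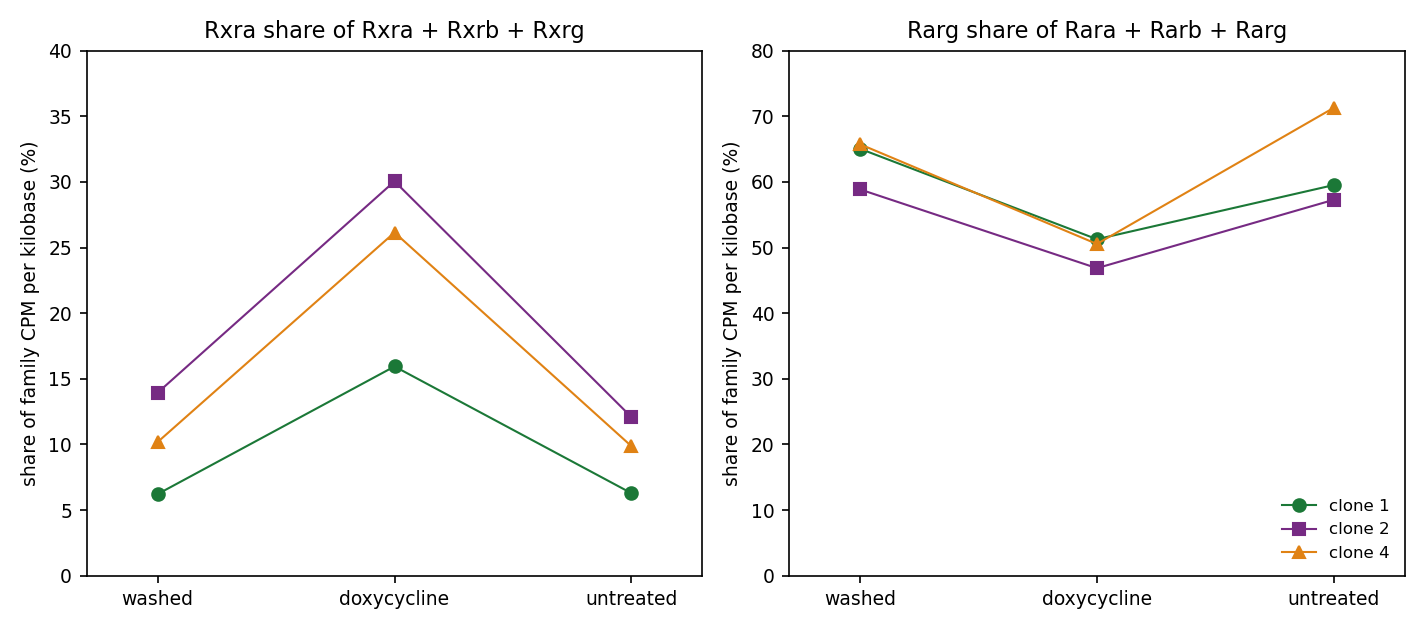
Share of Rxra in the summed CPM per kilobase of the 3 RXR genes (left) and of Rarg in that of the 3 retinoic acid receptor genes (right), in percent, with a line per clone. In doxycycline the Rxra share is highest (15.9% to 30.1%) and the Rarg share lowest (46.9% to 51.3%) in every clone.

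Ppard encodes PPAR delta, a receptor for fatty acids. It had 27.7, 34.3 and 32.2 CPM in washed clones 1, 2 and 4, against 43.1, 61.0 and 47.7 CPM in doxycycline clones. The groups did not overlap. The log2 fold change was -0.69 ± 0.21 SE (adjusted p = 0.0783), and with clone as a block Ppard fell by 0.68 (adjusted p = 0.0401). Untreated clones had 51.7, 41.2 and 33.4 CPM, with clone 1 above its doxycycline library and clones 2 and 4 below theirs (doxycycline against untreated, log2 fold change 0.27 ± 0.21 SE, adjusted p = 0.464).

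Vdr encodes the vitamin D receptor, a gene known for its expression in monocytes. It had 1.56, 7.48 and 5.75 CPM in washed clones 1, 2 and 4, against 6.79, 14.3 and 13.2 CPM in doxycycline clones. Each clone was lower after washout, and the groups overlapped because washed clone 2 lay above doxycycline clone 1. The log2 fold change was -1.22 ± 0.52 SE (adjusted p = 0.177), and with clone as a block Vdr fell by 1.32 (adjusted p = 0.0301). Untreated clones had 4.40, 5.29 and 5.44 CPM, below all doxycycline libraries. For doxycycline against untreated the log2 fold change was 1.17 ± 0.52 SE (adjusted p = 0.185) and 1.12 with the block (adjusted p = 0.0513). Without clone 1 the unblocked fit called Vdr higher in doxycycline (adjusted p = 0.0478). The sum of 11 monocyte and macrophage markers was 1813 to 2254 CPM in washed and 1788 to 2309 CPM in untreated libraries. In doxycycline libraries it was 1214 to 5387 CPM. Ly6c2 alone had 1160 to 5133 CPM over the libraries, while Csf1r reached 62.0 CPM. Of 7 tested genes of the list, 1 was called higher and 1 lower in doxycycline against untreated, against 6.57% and 4.35% of all genes. The part of these markers in the Vdr values was not tested.

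Nr1h2 encodes LXR beta, a sensor of oxidised cholesterol. It had 116, 207 and 143 CPM in doxycycline clones 1, 2 and 4, against 139, 185 and 142 CPM in untreated clones. The groups overlapped and the fitted difference was close to 0 (log2 fold change -0.000424 ± 0.327 SE, adjusted p = 0.999). In washed clones it had 75.3, 180 and 142 CPM. Clone 4 stayed at 142 to 143 CPM, and clone 1 was lowest after washout.

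Thra encodes the thyroid hormone receptor alpha. It had 27.9, 30.4 and 22.6 CPM in doxycycline clones 1, 2 and 4, against 49.0, 53.1 and 32.5 CPM in untreated clones. All 3 doxycycline libraries lay below the untreated ones (log2 fold change -0.73 ± 0.32 SE, adjusted p = 0.182; with the block -0.71, adjusted p = 0.0515). In washed clones it had 26.7, 61.3 and 32.9 CPM, with clone 1 at its doxycycline level and clones 2 and 4 at or above their untreated levels. Thra exons overlap those of Nr1d1 on the opposite strand over 263 bp in GENCODE M21, and reads of the 2 genes cannot be told apart there, since the strand setting of the counting is not given.

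Nr3c1, the glucocorticoid receptor, had the narrowest spread of the 10 genes relative to its level. It had 81.5, 84.3 and 80.7 CPM in doxycycline clones 1, 2 and 4, against 82.0, 89.3 and 88.8 CPM in untreated clones. In washed clones it had 63.0, 77.0 and 85.7 CPM. Doxycycline against untreated gave a 95% interval of -0.43 to 0.27 on the log2 scale (adjusted p = 0.786). Nr4a1 had 2.82, 2.78 and 4.26 CPM in doxycycline clones, against 4.95, 6.67 and 4.82 CPM in untreated clones. Those groups did not overlap, but the difference was not called (log2 fold change -0.73 ± 0.42 SE, adjusted p = 0.295), and with the block the adjusted p was 0.186.

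Differences between washed and untreated cells lay mostly in clone 1. For washed against untreated 0 of 10 members were called by edgeR, DESeq2 and limma voom, against 0% of all genes; 0 members and 38 genes had an unadjusted p under 0.05 in edgeR. The block fit gave 0 as well, and groups did not overlap for 0 of 10, against 2.36% of all genes. In clone 1 the washed level over the untreated level was 0.220 for Rara, 0.297 for Rarg, 0.355 for Vdr and 0.372 for Nr4a1. The other 6 genes lay between 0.536 (Ppard) and 0.778 (Rxrb) in clone 1, while the median of all tested genes was 1.00. In clones 2 and 4 the ratios of all 10 genes lay between 0.737 and 1.41. A ratio of 0.5 or less was met by 4 of 10 members in clone 1, against 15% of all genes. In clones 2 and 4 it was met by 0 of 10, against 1.42% and 1.07% of all genes. The limit of 0.5 was chosen after the values were seen. Untreated clone 1 is the library with 22.0% of its counts on a single entry, and the part of that in these ratios was not tested.

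Whether the doxycycline response itself differed between clones was tested with the washed and untreated libraries of a clone taken as repeats of the GFPhigh state. None of the 10 genes was called (0 of 10, against 0% of all genes), and 0 members and 407 genes had an unadjusted p under 0.05 in edgeR, the only tool run. The spread in this test came only from the washed and untreated libraries within each clone. The chi-square per degree of freedom between the counts of that pair was 357 in clone 1, 5.60 in clone 2 and 3.47 in clone 4. Without either of these clone 1 libraries the spread came from clones 2 and 4 alone. The test therefore cannot decide, with or without them, whether the response differs between clones.

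The level of Rxra differed between the clones in every condition. It was highest in clone 2, intermediate in clone 4 and lowest in clone 1 in washed, doxycycline and untreated cells alike. Rarg and Nr1h2 kept this order too (3 of 10 members, against 5.02% of all genes), a rule chosen after the values were seen. With the condition in the model, Rxra was higher in clone 2 than in clone 1 by 1.51 ± 0.18 SE on the log2 scale (adjusted p = 0.0283, edgeR). Clone 4 differed from clone 2 by -0.66 ± 0.17 SE (adjusted p = 0.106) and from clone 1 by 0.85 ± 0.18 SE (adjusted p = 0.112). The joint test of all 3 clones gave an adjusted p of 0.0505 for Rxra, which ranked 19 of 12004 genes by p. The clone difference of Rxra was known from earlier results of these data, so these tests and the rank are no separate evidence for it. Over the alternatives run, the joint test's adjusted p ran from 5.46e-07 with DESeq2 to 0.305 without the doxycycline group.

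The joint test called 0 of 10 members in edgeR, against 0% of all genes, while 6 members and 4501 genes (37.5%) had an unadjusted p under 0.05. DESeq2 called 4 members and 2764 of 12004 genes, and limma voom called 1 member and 533 of 12004 genes. For clone 2 against clone 1, edgeR called 18.5% of all genes and 4 of 10 members, all higher in clone 2: Rxra, Rara (1.53 ± 0.41 SE, adjusted p = 0.0422), Rarg (1.29 ± 0.33 SE, adjusted p = 0.0386) and Nr1h2 (0.82 ± 0.19 SE, adjusted p = 0.0343). For clone 4 against clone 2 it called 0 of 10, with Rxra and Thra at an unadjusted p under 0.05, and for clone 4 against clone 1 it called 0 of 10, with Rxra, Rarg and Vdr. In those 2 comparisons 0% of all genes were called, and 2776 and 2372 genes had an unadjusted p under 0.05. Clone 2 lay above clone 1 in all 3 conditions for 8 of 10 members, all but Ppard and Nr4a1, against 27.9% of all genes. This rule was also chosen after the values were seen. Each clone has 1 library per condition, so conditions stand in for repeats of a clone.

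**Figure D4:**
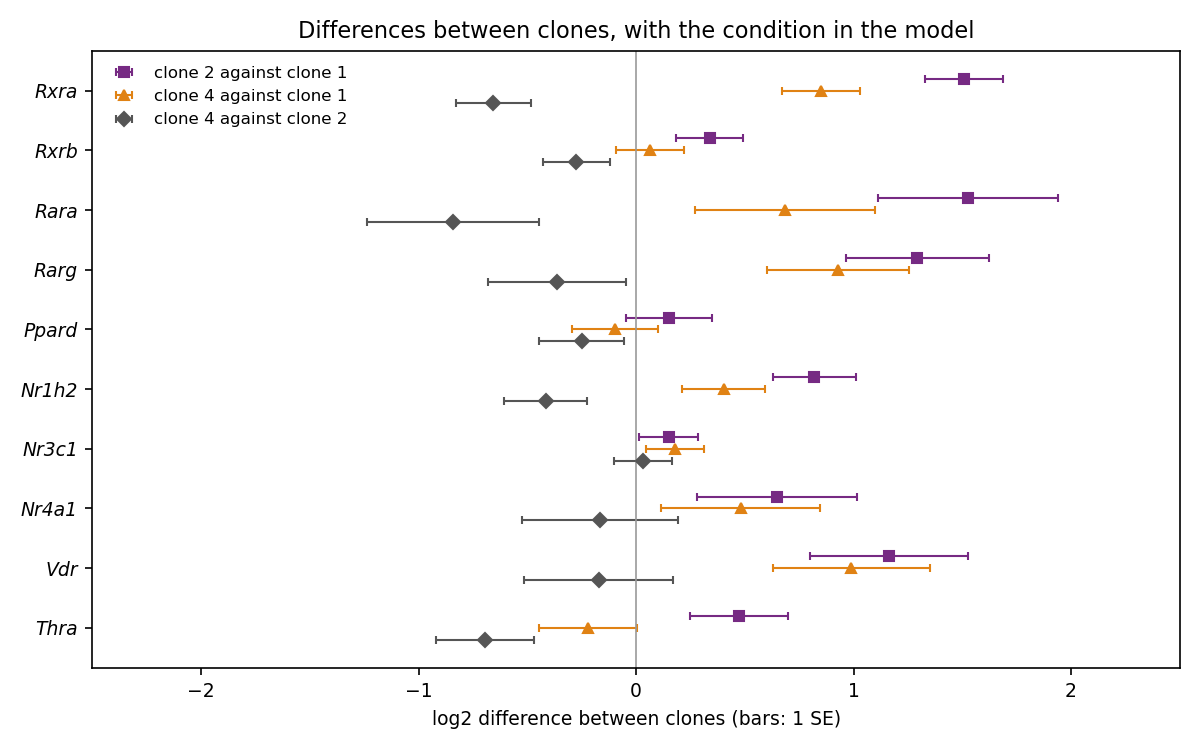
Log2 differences between clones for the 10 genes, with the condition in the model and bars of 1 SE. Clone 2 lies above clone 1 for every gene shown, by 1.51 for Rxra and 1.53 for Rara, and by 0.15 for Ppard and Nr3c1.

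Between genes, levels were compared per kilobase of the gene length in the files. Over the 9 libraries Nr1h2 was the most abundant, with a mean of 75.2 ± 20.0 CPM per kilobase (SD, n = 9), followed by Rxrb with 30.2 ± 4.79. Their ranges did not overlap, and Rxrb lay above Thra, the next gene, in 9 of 9 libraries. Thra averaged 16.6, Rarg 14.0, Nr3c1 and Ppard 12.9 each and Rara 9.87 CPM per kilobase, and neighbours in this order overlapped and changed places in some libraries. Rxra averaged 5.82 CPM per kilobase, with 16.1 in doxycycline clone 2 at the top and 1.42 in washed clone 1 at the bottom. Nr4a1 and Vdr were lowest, with 1.65 and 1.64 CPM per kilobase. The order of the means in washed and in untreated clones was Nr1h2, Rxrb, Thra, Rarg, Nr3c1, Ppard, Rara, Rxra, Nr4a1 and Vdr. In doxycycline it was Nr1h2, Rxrb, Ppard, Nr3c1, Thra, Rxra, Rara, Rarg, Vdr and Nr4a1, where Vdr averaged 2.62 ± 0.93 and Nr4a1 1.33 ± 0.34 CPM per kilobase (SD, n = 3 each).

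The genes with the profile most like that of Rxra over the 9 libraries were Cep170b, AB124611 and Slc41a3. Likeness was the root mean square difference of log2 CPM centred on each gene's mean, among 9094 other genes whose log2 CPM averaged 3 or more. It was 0.29, 0.31 and 0.31 for these genes, against an SD of 1.12 for Rxra itself. Cep170b, a centrosomal protein gene, averaged 25.6 CPM in washed, 69.4 in doxycycline and 26.8 in untreated libraries. AB124611 averaged 28.5 CPM in washed, 109 in doxycycline and 28.9 in untreated libraries, and Slc41a3, of a family of magnesium transporters, 7.61, 18.9 and 7.39 CPM in the washed, doxycycline and untreated libraries.

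Other genes of these pathways were described from lists chosen with earlier results of these data known. The 9 lists hold 165 different genes, of which 103 were tested, and 15 were called for doxycycline against untreated, 7 higher and 8 lower, where 6.57% of all genes were called higher and 4.35% lower. Without clone 1 the count was 15, without clone 2 it was 3, without clone 4 it was 0 and without untreated clone 1 it was 3. The block fit gave 31, 14 higher and 17 lower, where it called 13% of all genes higher and 11.7% lower. For washed against doxycycline 14 were called, 8 higher and 6 lower, where 3.64% of all genes were called higher and 6.02% lower. That count was 15, 1 and 0 without clones 1, 2 and 4, and 24 with the block (10 higher, 14 lower), where 10.4% of all genes were higher and 12.4% lower. For washed against untreated 0 of 103 were called in edgeR, DESeq2 and limma voom.

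Of 39 other nuclear receptor genes, 11 were tested and none was called for doxycycline against untreated. Under the block Pparg, the receptor of fat cells and macrophages, rose, with 3.11 ± 0.33 CPM in doxycycline and 0.99 ± 0.56 CPM in untreated clones (SD, n = 3 each; adjusted p = 0.0399). Coregulators, which carry the activity of receptors to chromatin, had 19 tested genes, 3 higher and 1 lower. The coactivator gene Ncoa7 rose to 90.4 ± 2.76 CPM in doxycycline, against 17.3 ± 8.06 CPM in untreated clones (adjusted p = 0.00642). Ncoa3 rose to 49.9 CPM in doxycycline, against 25.6 CPM in untreated clones (adjusted p = 0.0257), and Ncoa6 to 89.7 CPM, against 54.2 CPM in untreated clones (adjusted p = 0.0361). Ncoa6 missed the threshold with limma voom (adjusted p = 0.0508) and with no filter (adjusted p = 0.0505). Ppargc1b, the coactivator PGC-1 beta, had no count in the doxycycline libraries and 15, 18 and 24 counts in untreated clones 1, 2 and 4, which makes it at least 25.8-fold lower with a floor of 3 counts over the group (adjusted p = 0.0143). After washout Ncoa7 fell to 15.6 CPM (adjusted p = 0.00518), Ncoa3 fell to 23.4 CPM (adjusted p = 0.0184), and Ppargc1b was at least 23.3-fold higher than in doxycycline (adjusted p = 0.0167). The list's median log2 fold change in doxycycline was 0.21.

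Retinoid supply and breakdown had 12 tested genes, 2 higher and 1 lower in doxycycline, with a median log2 fold change of -0.044. Rdh12, a retinol dehydrogenase gene, rose to 13.2 ± 5.52 CPM in doxycycline, against 2.41 ± 0.46 CPM in untreated clones (adjusted p = 0.0137). Dhrs9, of the same enzyme class, rose to 2.66 CPM in doxycycline, against 0.764 CPM in untreated clones (adjusted p = 0.0378), and Adh5, an alcohol dehydrogenase gene, fell to 44.8 CPM, against 86.3 CPM in untreated clones (adjusted p = 0.0144). Adh5 missed the threshold with library size alone (adjusted p = 0.136), and Dhrs9 with no filter (adjusted p = 0.0676). After washout Rdh12 fell to 3.61 CPM (adjusted p = 0.0344) and Adh5 rose to 87.0 CPM (adjusted p = 0.0158). Both washout calls were lost with library size alone (adjusted p = 0.0597 for Rdh12 and 0.079 for Adh5).

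Of 10 tested genes known as retinoic acid targets, 2 rose in doxycycline and none fell, and the median log2 fold change was 1.04 against 0.00448 for all genes. Icam1, an adhesion receptor gene, rose to 10.2 ± 1.24 CPM, against 1.17 ± 1.08 CPM in untreated clones (adjusted p = 0.0111). Tgm2, the transglutaminase gene, rose to 590 ± 237 CPM, against 247 ± 62.1 CPM in untreated clones (adjusted p = 0.0485). Tgm2 missed the threshold with limma voom (adjusted p = 0.0603) and with the filter of 5 CPM (adjusted p = 0.0507). Under the block Tgm2, Icam1, Cd38, Cebpe and Btg2 rose and Cyp26b1 fell (5 and 1 of 10). The block fit called 13% of all genes higher and 11.7% lower. Cyp26b1, the gene of an enzyme that breaks retinoic acid down, averaged 0.958 to 2.31 CPM per clone. Its fitted log2 response to doxycycline in clones 2 and 4 lay 6.46 and 5.62 above that in clone 1 (unadjusted p = 0.0293, edgeR interaction test). That test called 0 of 12004 genes and cannot decide whether responses differ between clones. The size of this gap rests on low counts. After washout Icam1 fell to 1.25 CPM (adjusted p = 0.0125), Tgm2 to 174 CPM (adjusted p = 0.0177) and Btg2 to 39.1 CPM, against 139 CPM in doxycycline (adjusted p = 0.0474). Cebpe is also a gene of maturing neutrophils, and the rise of the neutrophil marker sum given above stands beside these genes; its part in them was not tested.

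LXR targets had 12 tested genes, 0 higher and 2 lower in doxycycline, and 4 lower with the block. Scd2, a fatty acid desaturase gene, fell to 579 ± 212 CPM, against 1694 ± 295 CPM in untreated clones (adjusted p = 0.0346), and Smpdl3a fell to 6.01 ± 1.43 CPM, against 22.3 ± 3.62 CPM in untreated clones (adjusted p = 0.0161). Of 13 tested PPAR targets 1 was called, Cpt2, a carnitine palmitoyltransferase gene of mitochondria, which fell to 21.9 ± 1.64 CPM, against 35.8 ± 1.65 CPM in untreated clones (adjusted p = 0.0208), a call lost with library size alone (adjusted p = 0.273). With the block 1 rose and 2 fell. After washout Cpt2 rose to 39.2 CPM (adjusted p = 0.0123) and Angptl4, a secreted inhibitor of lipoprotein lipase, to 32.4 against 13.5 CPM in doxycycline (adjusted p = 0.0402). Both washout calls were lost with library size alone (adjusted p = 0.0948 for Cpt2 and 0.106 for Angptl4). The median log2 fold change in doxycycline was -0.50 for LXR targets and 0.12 for PPAR targets.

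Glucocorticoid targets had 15 tested genes, 0 higher and 2 lower in doxycycline, and 5 lower with the block. The 2 were the metallothionein genes Mt1 and Mt2, which also respond to metals. Mt1 fell to 127 ± 21.0 CPM, against 456 ± 128 CPM in untreated clones (adjusted p = 0.0109), and Mt2 to 16.6 ± 3.73, against 98.6 ± 32.8 CPM in untreated clones (adjusted p = 0.00548). After washout Mt1 rose to 329 CPM and Mt2 to 73.5 CPM. Genes for glucocorticoid receptor chaperones and activation gave 0 calls of 10, and with the block Hsd11b1 rose and H6pd fell. The median log2 fold change in doxycycline was -0.39 for the glucocorticoid targets, -0.088 for the chaperones and -0.64 for the 6 tested genes of vitamin D and thyroid hormone handling.

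**Figure D5:**
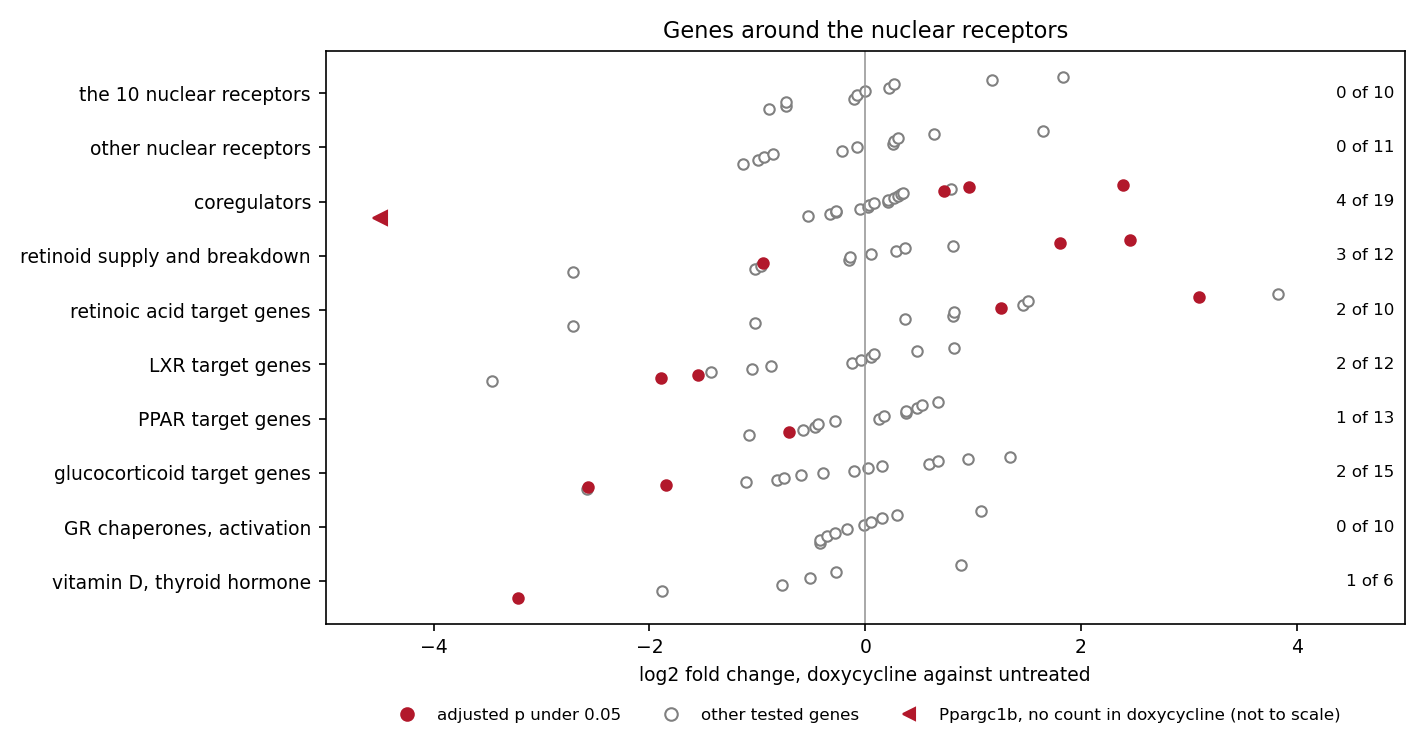
Log2 fold changes of the tested genes of each list, doxycycline against untreated, with filled red points for genes at an adjusted p under 0.05 and the number called at the right. The triangle marks Ppargc1b, which had no count in doxycycline and is not drawn to scale, and none of the 10 nuclear receptors is filled although Rxra stands at 1.83.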

How the data were processed

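Each of 9 deposited files, 1 per library, holds unnormalized read counts by Entrez gene, per the file headers. The submitters' processing notes name the mm10 build, CASAVA 1.8.2 and featureCounts, beside edgeR 3.8.2 and limma 3.22.0. How reads were aligned, with which annotation and strand setting, and how multi-mapped reads were counted is not given in the sources used here. Symbols came from the RefSeq table of GRCm38.p6 and matched 25275 of 27179 entries. Low counts limit the precision of single libraries.

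Genes were filtered with filterByExpr, scaled by TMM and fitted to all 9 libraries with edgeR 4.0.16 in R 4.3.3, with a mean per group and quasi-likelihood F tests. P-values were adjusted by Benjamini-Hochberg over 12004 genes, and values under 0.05 were called. Each SE was derived from the log2 fold change and its F statistic. Clones were tested with group and clone in the model, and clone responses with an interaction. Since the clones share 1 line, p-values of the fit with a mean per group reflect only the spread among them. With clone as a block, and in the tests of clone differences, p-values reflect the spread left after group and clone. The code was tested on simulated data.

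The clone number pairs the libraries, since libraries of 1 clone are 1 cell line. Deviations from group means correlated at 0.29 to 0.68 in the 9 same-clone pairs and at -0.69 to 0.32 in 18 others. No library duplicated another: the chi-square per degree of freedom was 3.47 for the closest pair, washed and untreated clone 4.

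The members and lists were chosen with earlier results of these data known. Named were the 10 members, Spi1, the called genes of each list (up to 4 of smallest p for doxycycline, 2 for other contrasts) and the 3 profiles nearest to Rxra; Pparg, Btg2, Ncoa3 after washout, Hsd11b1, H6pd and the genes called only with the block were named after their values were seen. Rules on ratios within clones and on clone order were also chosen after the values were seen. Alternatives were no filter or one of 5 CPM in 3 libraries, scaling by RLE or by library size alone, DESeq2 1.42.0, voom from limma 3.58.1, clone as a block, 2 groups alone and leaving out each clone or untreated clone 1. Fits without washed clone 1, and block fits leaving out a clone or library, were added after the data were seen. The result of 1 list gene is not reported here.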

Additional observations from a re-analysis of the deposited data

How the results depend on the processing

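Of 375 alternative values for single members, 331 kept their direction and side of the threshold, 24 passed it and 20 turned sign. For doxycycline against untreated the count of members called was 1 with library size alone, no filter, DESeq2, 2 groups alone and clone as a replicate block, and 2 without washed clone 1; it ran from 0 to 2 when a clone was left out. With the replicate block it was 2 without untreated clone 1, 4 without washed clone 1 and 1 to 5 without a clone. Over all tested genes, 1053 of 12004 were called with library size alone, 1185 of 17582 with no filter and 2138 of 11988 with DESeq2. The replicate block called 24.8% of all genes. List genes called ranged from 0 without clone 4 to 49 with the block without clone 1. Calls over all genes are not given here for fits leaving out a clone or library, so those counts are no result about the members. For washed against doxycycline the count of members called was 2 with DESeq2 and 3 with the replicate block, which called 22.9% of all genes. It was 3 and 4 with the block without untreated or washed clone 1, and 0 to 1 (1 to 5 with the block) without a clone. The log2 fold change of Rxra in doxycycline ran from 1.57 to 1.96 over 18 alternatives (adjusted p 5.99e-05 to 0.412). The clone count was 1 with RLE and limma voom, 3 with library size alone, no filter and without the untreated group, 4 with DESeq2, and 5 without untreated or washed clone 1. Beside these clone counts, calls over all genes are given above only for DESeq2 and limma voom. Rxra passed the joint test of all clones in the fits of these clone counts, and missed it without the doxycycline group. Its clone 2 minus clone 1 difference was 1.51 (RLE), 1.44 (library size), 1.48 (no filter), 1.51 (DESeq2) and 1.49 (voom). That difference was 1.63 without the untreated group, 1.58 without untreated clone 1 and 1.32 without washed clone 1. It was known from earlier results, so these passes are no separate evidence. The interaction count was higher without untreated or washed clone 1, where the spread came from clones 2 and 4 alone. Calls over all genes are not given for those fits, so that count is no result about the members. Values that turned sign were at most 0.18 in size with another scaling, filter or tool, and reached -0.40 when a clone was left out. With library size alone, which put the median of all genes at 0.23 for doxycycline and 0.22 for washed, each against untreated, they were Rara 0.062, Nr1h2 0.18 and Nr3c1 0.14 for doxycycline against untreated, and Rxrb 0.13, Vdr 0.083 and Thra 0.029 for washed against untreated. Without a filter Nr1h2 was 0.0037 in doxycycline; with voom Nr4a1 was -0.056 for washed against doxycycline and Rxra -0.070 for washed against untreated. Leaving out each clone gave -0.27 to 0.16 for Rara and -0.12 to 0.10 for Nr1h2 in doxycycline, and -0.40 to 0.32 for Nr4a1 for washed against doxycycline. For washed against untreated it gave -0.079 to 0.25 for Rxra (-0.12 to 0.23 with the block), -0.14 to 0.085 for Rxrb, -0.65 to 0.15 for Rara, -0.62 to 0.051 for Rarg, -0.45 to 0.30 for Vdr and -0.45 to 0.14 for Thra; without untreated clone 1 Rxra was -0.12. The cause of these changes was not tested. The filter of 5 CPM removed Nr4a1. Of 403 values for list genes and Spi1, 98 no longer passed and none turned sign.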
